A study of Mus musculus with 6 samples.

Results

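The genes described here are 10 clade A serpins of the mouse liver, the 5 copies of Serpina1 (Serpina1a, Serpina1b, Serpina1c, Serpina1d and Serpina1e), 4 genes of the Serpina3 cluster (Serpina3c, Serpina3k, Serpina3m and Serpina3n) and Serpina6, taken by name from a table of 15454 genes. The livers came from 6 male C57BL/6 mice, 8 to 10 weeks old, and all had been through warm ischemia of 75% of the organ and then reperfusion (I/R) before their RNA was sequenced. The I/R group is 3 mice that had vehicle, and the I/R+Rk2 group is 3 mice that had ginsenoside Rk2, a rare saponin of steamed ginseng, from 2 days ahead of the surgery and again when reperfusion began. The groups are also called vehicle livers and Rk2 livers. No sham-operated liver was analysed here, so each value compares injured livers with injured livers and says nothing of the level before injury. A library stands for a liver, and the labels do not say whether livers were processed together, so p-values measure only the spread between these samples.

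Serpins are protease inhibitors that work as a bait. A flexible stretch near the end of the protein, the reactive centre loop, is cut by the protease, the loop then inserts into the body of the serpin and the protease is trapped in an inactive form. Serpina1 encodes alpha-1 antitrypsin, a major plasma inhibitor of neutrophil elastase that hepatocytes secrete in large amounts. Serpina3 is the family of alpha-1 antichymotrypsin. Both are single genes in humans and families of copies in mice, and several are acute phase genes, which the liver induces after injury. Serpina6 encodes corticosteroid-binding globulin, the carrier of cortisol and corticosterone in blood, which has the serpin fold but is not a protease inhibitor.

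In I/R+Rk2 livers the genes of the Serpina3 cluster split. Serpina3n, Serpina3m and Serpina3c were 5.48-, 2.52- and 1.87-fold lower than in I/R livers, whereas Serpina3k, the most abundant of the 4 in counts and per length, did not pass the test. Serpina6 was 1.55-fold higher. The 5 Serpina1 copies were between 1.17- and 1.28-fold higher, of which Serpina1a and Serpina1c passed the test by a narrow margin and Serpina1b, Serpina1d and Serpina1e did not. Thus 3 of 10 members fell, 3 rose and 4 did not pass, by edgeR's quasi-likelihood test at a Benjamini-Hochberg adjusted p below 0.05 over 12411 genes. In the same test 23.7% of all genes were lower and 20.3% higher. With a fold change above 2 required as well, the limit that the study set, 2 members remained (Serpina3m and Serpina3n, both lower), against 11.4% of all genes lower and 3.17% higher.

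All 10 genes lie on chromosome 12 within 768 kb, from Serpina6 (chr12:103646630-103657212, minus strand) to Serpina3n (chr12:104406729-104414329, plus strand), on build GRCm38 with GENCODE M21. The Serpina1 copies occupy chr12:103728156-103958975 on the minus strand, interleaved with 6 unprocessed pseudogenes. Their coding sequences are 1239 bases each and were 96.3% to 98.5% identical over the 10 pairs. The 4 Serpina3 coding sequences were 83.8% to 92.6% identical over 6 pairs, closest between Serpina3k and Serpina3m. Between the families identity was 64.4% to 67.2%, and Serpina6 was 62.3% to 66.4% identical to the others.

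The copies differ most visibly where they meet the protease. The codons of the reactive centre loop are shown because they tell the copies apart, 5′ to 3′ on the coding strand. For Serpina1 the capitals mark the 15 of 72 bases that are not the same in all 5 copies. The stretches lie in 1 coding exon each, at chr12:103853765-103853836 (Serpina1a), chr12:103728332-103728403 (Serpina1b), chr12:103895102-103895173 (Serpina1c), chr12:103763770-103763841 (Serpina1d) and chr12:103947108-103947179 (Serpina1e), on the minus strand.
Serpina1a: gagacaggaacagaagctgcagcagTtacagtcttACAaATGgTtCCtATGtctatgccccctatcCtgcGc
Serpina1b: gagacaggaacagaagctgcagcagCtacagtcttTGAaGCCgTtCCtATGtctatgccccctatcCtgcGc
Serpina1c: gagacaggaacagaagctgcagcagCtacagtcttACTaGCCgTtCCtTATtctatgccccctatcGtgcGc
Serpina1d: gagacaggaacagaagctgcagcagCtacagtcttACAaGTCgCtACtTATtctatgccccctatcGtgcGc
Serpina1e: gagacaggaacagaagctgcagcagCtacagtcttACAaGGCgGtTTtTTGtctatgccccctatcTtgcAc

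Between pairs of Serpina1 copies 4 to 10 of these 72 bases differed, fewest between Serpina1c and Serpina1d and most between Serpina1a and Serpina1e. In the Serpina3 genes the loop also differs in length, from 72 to 81 bases. Here the 33 bases of the hinge are in lower case, and the capitals mark the part of the loop that follows it and faces the protease. These stretches lie at chr12:104147322-104147393 on the minus strand (Serpina3c) and at chr12:104345263-104345337 (Serpina3k), chr12:104393763-104393843 (Serpina3m) and chr12:104413442-104413522 (Serpina3n) on the plus strand.
Serpina3c: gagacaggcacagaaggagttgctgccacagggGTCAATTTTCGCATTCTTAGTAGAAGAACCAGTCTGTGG
Serpina3k: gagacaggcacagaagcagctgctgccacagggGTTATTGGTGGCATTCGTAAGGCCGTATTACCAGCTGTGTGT
Serpina3m: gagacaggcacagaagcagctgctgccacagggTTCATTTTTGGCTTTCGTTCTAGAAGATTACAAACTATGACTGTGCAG
Serpina3n: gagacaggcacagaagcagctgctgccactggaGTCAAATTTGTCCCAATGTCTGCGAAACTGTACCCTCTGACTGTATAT

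Such likeness limits how far reads can be assigned to a copy. Of all 50-base windows of the main transcript, 19.2% of Serpina1a and 20.7% of Serpina1c occurred in the transcripts of no other gene, against 49.1% to 62.1% of Serpina1b, Serpina1d and Serpina1e, 80.9% to 95.8% of the Serpina3 genes and 100% of Serpina6. With windows of 100 bases the shares were 39.0% for Serpina1a, 30.7% for Serpina1c, at least 70.7% for the other Serpina1 copies and at least 93.9% for the rest. Serpina1a and Serpina1c share 69.3% and 69.4% of their 50-base windows with each other. How the authors' software divided shared reads is not given in the sources used here, so single Serpina1 copies are uncertain. Their summed counts, given beside them, do not depend on the division among the 5 copies. They can still depend on reads shared with pseudogenes, as Serpina1a and Serpina1c share 43.7% and 36.6% of their 50-base windows with Gm8893. Gene models overlap as well. Serpina3m has a model that begins at the start of Serpina3k (chr12:104338486), with which it shares 15.96% of its 50-base windows, Serpina1b has models that reach over Serpina1d, and the antisense gene B430119L08Rik (chr12:103895897-103898784) lies inside Serpina1c. Serpina3k was far more abundant than Serpina3m in both groups, so reads of Serpina3k could form part of the Serpina3m counts. How far they did was not tested. The strand setting of the counting was not stated.

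**Figure D1:**
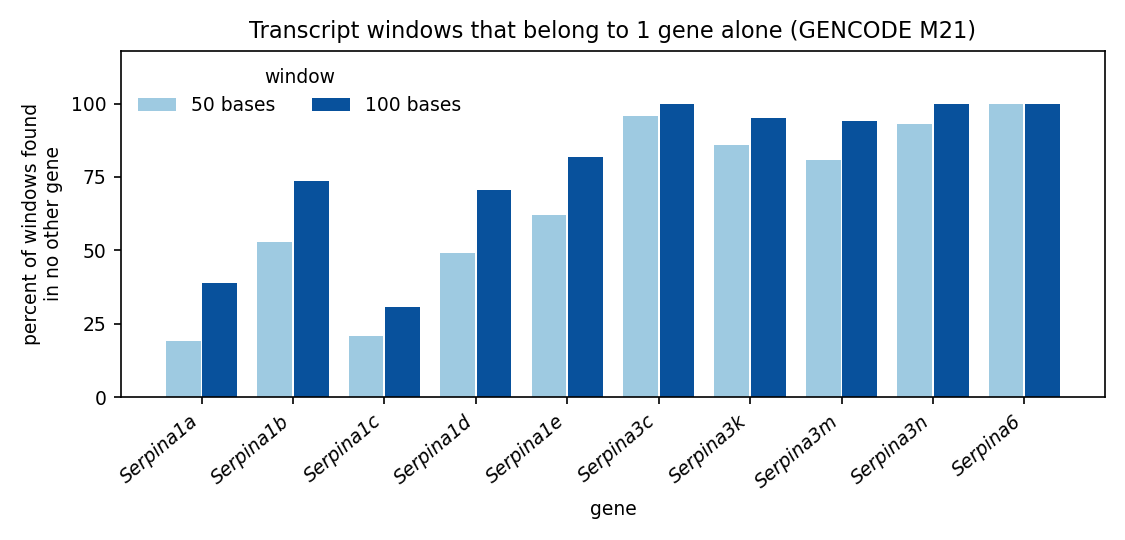
Share of 50-base (light) and 100-base (dark) windows of each gene's main GENCODE M21 transcript that were found in no other gene's transcripts on either strand, in percent. Serpina1a and Serpina1c, at 19.2% and 20.7% for 50 bases, are the least separable, and the Serpina3 genes and Serpina6 all lie above 80%.

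The 6 libraries held 16809613 to 35618074 counts, and 3 counts stood for 0.0888 to 0.184 CPM (counts per 1000000, scaled by TMM), far below the level of any member. TMM factors were 1.01 to 1.14 in the I/R libraries and 0.914 to 0.975 in the I/R+Rk2 libraries, so the scaling itself differed by group. The labelled tissue was borne out by its markers, with a mean of 49230 CPM for Alb in vehicle livers and 80120 CPM in Rk2 livers. All 10 members passed the filter on low counts. Together they took 4.54% to 5.40% of every library's counts.

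Per length, the members spanned a wide range, and their order was the same in both groups. In I/R livers the mean level in FPKM (fragments per kilobase of transcript and per 1000000 mapped) fell from Serpina1e (7292 ± 370, SD, n = 3) through Serpina3k (5798 ± 347), Serpina1c (4481 ± 248), Serpina1b (4085 ± 148), Serpina1a (3886 ± 193) and Serpina1d (3175 ± 116) to Serpina3m (966 ± 125) and Serpina3n (851 ± 309), with Serpina6 (41.9 ± 5.94) and Serpina3c (19.5 ± 3.84) far below. Neighbours in this order did not overlap, other than Serpina1b with Serpina1a and Serpina3m with Serpina3n. In I/R+Rk2 livers the order began with Serpina1e at 7637 ± 1804 FPKM, and it held Serpina3m at 342 ± 36.2 FPKM and Serpina3n at 137 ± 6.42 FPKM. There Serpina3m and Serpina3n no longer overlapped, while Serpina3k overlapped with Serpina1c and Serpina1b with Serpina1a.

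Within the Serpina3 cluster, Serpina3n, an acute phase gene whose product inhibits granzyme B and other serine proteases, had 2309, 1622 and 1306 CPM in vehicle livers, against 300.3, 309.3 and 345.4 CPM in Rk2 livers. The groups were far apart, and vehicle livers varied more (1746 ± 513 CPM, SD, n = 3) than Rk2 livers (318 ± 23.9 CPM). The fitted log2 fold change was -2.46 ± 0.21 (SE), at an adjusted p of 0.000451 from edgeR. I/R replicate 1 was the highest, and without it the log2 fold change was -2.19. Serpina3m had 1685, 1683 and 1459 CPM in vehicle livers, against 681, 647.7 and 585.3 CPM in Rk2 livers. These groups did not overlap either, and the fit gave -1.33 ± 0.11 (log2 fold change and SE, adjusted p of 0.000373 from edgeR).

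Serpina3c, the scarcest member, showed the same direction at a much lower level. It held 49.37, 41.68 and 38.63 CPM in vehicle livers, against 25.01, 21.38 and 23.03 CPM in Rk2 livers, and its fitted log2 fold change was -0.90 ± 0.12 (SE), at an adjusted p of 0.00161 from edgeR. All I/R livers lay above all I/R+Rk2 livers for Serpina3n, Serpina3m and Serpina3c, as the livers of one group did above those of the other for 57.4% of all genes tested.

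Serpina3k, whose product binds tissue kallikrein, had 11290, 13090 and 11720 CPM in vehicle livers, against 14020, 11880 and 11990 CPM in Rk2 livers. The groups overlapped. Its log2 fold change was 0.07, with a 95% interval from -0.25 to 0.39 (edgeR adjusted p = 0.70), so a change past 1.5-fold in either direction lay outside the interval. The sign of this small value was not stable, as it turned negative with library size alone, with FPKM and without I/R+Rk2 replicate 1. The sum of the 4 Serpina3 genes, most of it Serpina3k, went from 15430 ± 959 to 13610 ± 1225 CPM (-0.18 ± 0.14, SE, on the log2 scale, adjusted p of 0.316 from edgeR).

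**Figure D2:**
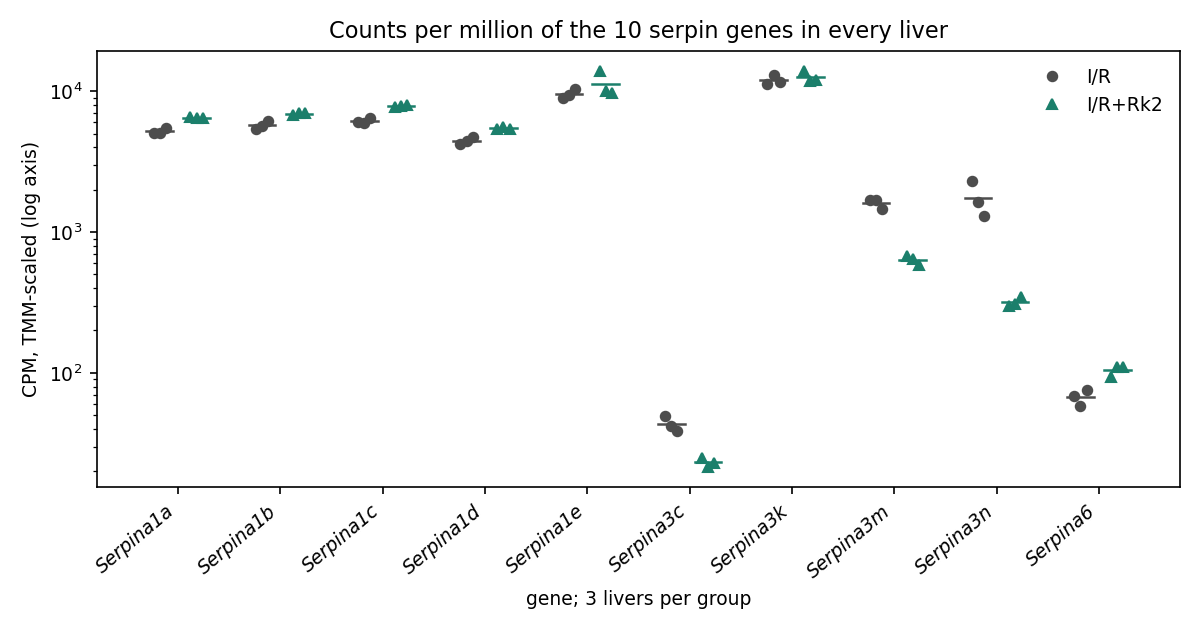
Counts per 1000000 (CPM, TMM-scaled, log axis) of each member in the 3 I/R livers (grey circles) and the 3 I/R+Rk2 livers (green triangles), with short lines at the group means. Serpina3n, at 1306 to 2309 CPM with vehicle and 300.3 to 345.4 CPM with Rk2, shows the widest gap, while Serpina3k and Serpina1e overlap between the groups.

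The makeup of each cluster does not depend on the scaling of libraries, since it compares genes of the same liver. In the summed counts of the Serpina3 genes, Serpina3n made up 15.1%, 9.87% and 8.99% with vehicle and 2.0%, 2.40% and 2.67% with Rk2. Serpina3m went from 10.4% ± 0.497 to 4.70% ± 0.295 (SD, n = 3), and Serpina3c from 0.280% ± 0.0364 to 0.170% ± 0.00665. Serpina3k, which takes what the others leave, went from 78.0% ± 3.81 to 92.8% ± 0.472. For all 4 genes the groups did not overlap, and the exact two-sided permutation test gave p = 0.10, the smallest that 3 against 3 livers allow (0.225 after Benjamini-Hochberg adjustment over 9 genes). Shares of FPKM gave the same p for all 4.

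For Serpina1 the shares of each copy overlapped between the groups. Serpina1e held 30.8% ± 0.552 of the summed counts in I/R and 29.3% ± 4.37 in I/R+Rk2, where replicate 1 had 34.3% and replicates 2 and 3 had 27.0% and 26.5%. Its difference of -1.47 points was -3.99 when the first of these 3 Rk2 livers was left out, -0.331 without the second and -0.0948 without the third. The other copies held 16.7% and 17.1% (Serpina1a), 18.4% and 18.3% (Serpina1b), 19.7% and 20.8% (Serpina1c) and 14.3% and 14.4% (Serpina1d) in I/R and I/R+Rk2. Exact permutation p-values ran from 0.4 to 1 (two-sided).

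**Figure D3:**
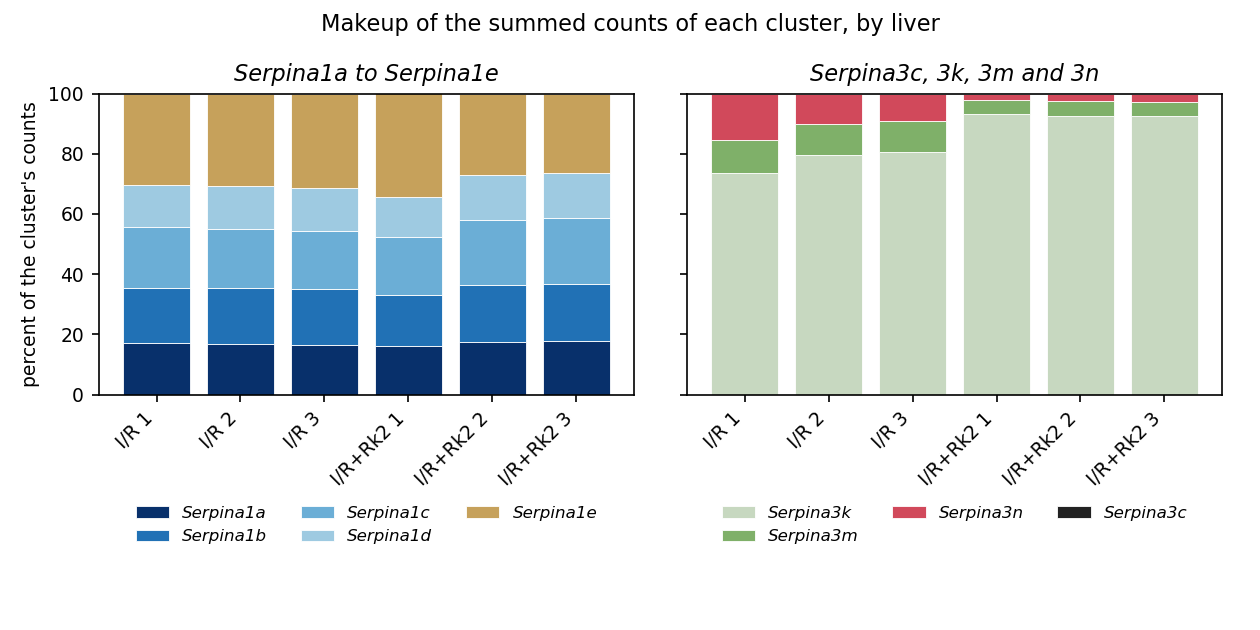
Share of each gene in the summed counts of Serpina1a to Serpina1e (left) and of Serpina3c, Serpina3k, Serpina3m and Serpina3n (right), in percent, with a bar for each of the 6 livers. Serpina3n and Serpina3m shrink from 11.3% and 10.4% on average in I/R to 2.36% and 4.70% in I/R+Rk2, while the shares in the left panel overlap between the groups, and Serpina3c, under 0.4%, is too thin to see.

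Among the Serpina1 copies, Serpina1c had 6005, 5989 and 6442 CPM in vehicle livers, against 7728, 7906 and 7999 CPM in Rk2 livers, and the fit gave 0.36 ± 0.11 (log2 fold change and SE, adjusted p of 0.0321 from edgeR). Serpina1a had 5060, 5081 and 5483 CPM in vehicle livers, against 6540, 6465 and 6455 CPM in Rk2 livers, which gave 0.32 ± 0.11 (adjusted p of 0.0449). These are the copies that share most of their sequence. Both rises were small, and their calls were lost under many settings. Leaving out any 1 of the 6 livers ended both calls, as did library size alone (log2 fold changes of 0.197 for Serpina1c and 0.156 for Serpina1a) and each fit on FPKM. With 1 liver left out the log2 fold changes themselves stayed at 0.341 to 0.391 for Serpina1c and 0.3 to 0.353 for Serpina1a. Serpina1a also lost its call with no filter (adjusted p = 0.0522) and with at least 10 counts in every library (0.0595), both with edgeR. Serpina1b (5741 ± 343 against 6935 ± 146 CPM, 0.27 on the log2 scale, adjusted p of 0.081 from edgeR) and Serpina1d (4466 ± 283 against 5473 ± 116 CPM, 0.29, adjusted p of 0.0609) did not pass in the main test, and passed with upper-quartile scaling and in DESeq2. For Serpina1a to Serpina1d every I/R+Rk2 liver lay above every I/R liver on this scale. Groups lay apart in this way, in either direction, for 57.4% of all genes tested.

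Serpina1e, the highest member per length, had 8992, 9352 and 10420 CPM in vehicle livers, against 13830, 9974 and 9714 CPM in Rk2 livers. Only I/R+Rk2 replicate 1 lay above the I/R livers, and the others fell within their range (0.22 ± 0.17, SE, on the log2 scale, adjusted p of 0.332 from edgeR). Without that library the log2 fold change was 0.03.

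Summed over the 5 copies, Serpina1 had 29700, 30530 and 33230 CPM in vehicle livers, against 40280, 36930 and 36610 CPM in Rk2 livers. The groups did not overlap on this scale, but the difference of 0.28 ± 0.15 (SE) on the log2 scale did not pass (adjusted p of 0.154 from edgeR). It did in DESeq2 (0.30, adjusted p = 0.0117). As a plain share of each library's counts, without TMM, the sum was 3.39%, 3.12% and 3.36% in I/R and 3.93%, 3.50% and 3.35% in I/R+Rk2, and there the groups overlapped. FPKM sums overlapped too, at 21746 to 23554 in I/R and 23350 to 27421 in I/R+Rk2.

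Serpina6 rose from 68.87, 58.62 and 75.58 CPM in vehicle livers to 93.26, 110.8 and 110.6 CPM in Rk2 livers. The groups did not overlap, as for 57.4% of all genes tested, and the fit gave 0.63 ± 0.12 (log2 fold change and SE, adjusted p of 0.00626 from edgeR). Since no other gene shares a 50-base window with its transcript, division of reads among copies does not touch this value. Around it, 13 genes of glucocorticoid handling and response were tested, of which 3 fell, 4 rose and 6 did not pass. Over all genes tested 23.7% were lower and 20.3% higher. The targets of the glucocorticoid receptor Fkbp5 (log2 fold change -1.45, edgeR adjusted p = 0.00319), Per1 (-0.56, 0.00402) and Zbtb16 (-1.01, 0.0128) fell, while Tsc22d3 (1.58, 0.033), another target, rose. For Tsc22d3 the lowest Rk2 liver (49.17 CPM) lay just above the highest vehicle liver (47.6 CPM). Akr1d1, which inactivates steroids by reduction, rose by 1.05 (edgeR adjusted p = 0.00431), and the receptor gene Nr3c1 by 0.34 (0.0337). The direction for Nr3c1 depended on the measure. Its FPKM was lower with Rk2, at 8.485 ± 0.2026 in I/R and 6.534 ± 0.1356 in I/R+Rk2 (SD, n = 3). The median of the list was 0.142, beside -0.00759 over all genes tested.

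**Figure D4:**
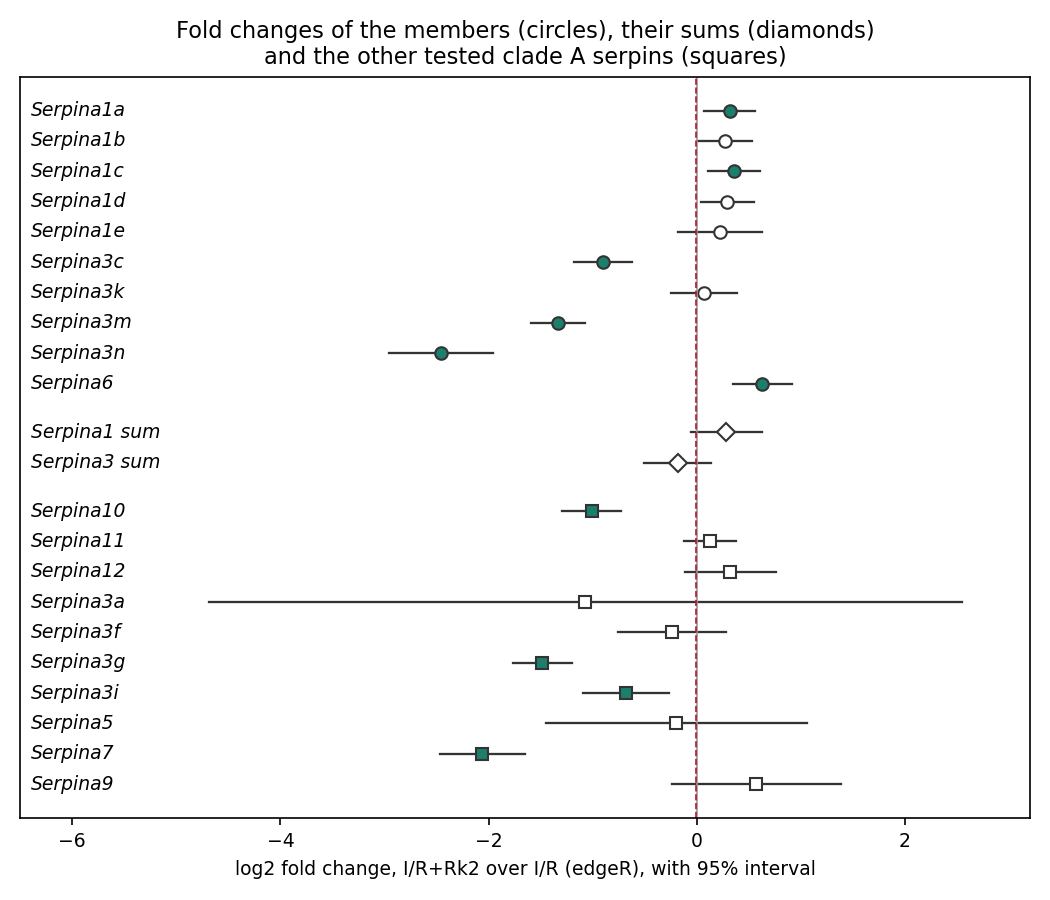
Log2 fold change, I/R+Rk2 over I/R, from edgeR with its 95% interval, for the members (circles), the summed counts of each cluster (diamonds) and the 10 other clade A serpins tested (squares), filled where the adjusted p was below 0.05. The dashed line is the median of all genes, at -0.00759. Serpina3n (-2.46) and Serpina7 (-2.06) lie lowest, and Serpina6 (0.63) is the highest filled point.

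Of the other clade A serpins, 10 were tested, and 4 fell, none rose and 6 did not pass (median log2 fold change -0.457). Serpina3g, an intracellular inhibitor of cathepsins, went from 30.3 ± 2.29 to 10.8 ± 1.21 CPM (-1.48 on the log2 scale, adjusted p of 0.000366 from edgeR). Serpina7, thyroxine-binding globulin, went from 81.3 ± 13.6 to 19.5 ± 3.48 CPM (-2.06, 0.000436). Serpina10, the protein Z-dependent inhibitor of coagulation factor Xa, went from 409.8 ± 35.2 to 203.5 ± 24.98 CPM (-1.01, 0.00114), and Serpina3i from 3.57 ± 0.245 to 2.24 ± 0.0839 CPM (-0.68, 0.0186). So the carrier serpins Serpina6 and Serpina7 moved in opposite directions. Serpina12 (log2 fold change 0.32), Serpina9 (0.57), Serpina11 (0.13), Serpina3f (-0.24), Serpina3a (-1.07) and Serpina5 (-0.20) did not pass. Serpina3b and Serpina3j, with 9 and 31 counts over all libraries, were below the filter.

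Of 9 secreted serpins of other clades, 5 rose, 1 fell and 3 did not pass (median 0.317). Heparin cofactor II, Serpind1, rose by 0.58 on the log2 scale (edgeR adjusted p = 0.00194), Serpinf1 by 0.50 (0.00665) and angiotensinogen, Agt, by 0.35 (0.00879). In the largely intracellular clade B, 1 of 6 fell (Serpinb6a, -0.52, adjusted p = 0.034), 1 rose (Serpinb9, 0.55, 0.0492) and 4 did not pass, Serpinb8 (-0.96) and Serpinb1a (0.68) among them. Of 20 inhibitors of other families, 5 fell, 4 rose and 11 did not pass (median 0.171). A2m (-2.56), Slpi, which inhibits neutrophil elastase (-2.01), and the metalloproteinase inhibitor Timp1 (-2.11) fell, and Tfpi2 (1.21) rose, with edgeR adjusted p-values of 0.00277 to 0.0053. A2m was scarce, at 1.09 ± 0.279 CPM with vehicle and 0.187 ± 0.0515 CPM with Rk2, the latter near the level of 3 counts.

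The list of proteases held targets of these serpins and other plasma proteases, and the targets were seen only in part. Elane, neutrophil elastase, had 3 counts over all libraries, Ctsg had no row in the count table, and Prtn3, proteinase 3, went from 1.36 ± 0.714 to 0.592 ± 0.231 CPM (-1.24 on the log2 scale, adjusted p of 0.106 from edgeR). Neutrophils make these mRNAs in the bone marrow and carry the finished proteins in granules. Gzmb, granzyme B, and Klk1, tissue kallikrein, had 34 and 4 counts over all libraries and were below the filter. Of the 6 proteases tested, 3 rose, 1 fell and 2 did not pass (median 0.274), Prtn3 among the last. Most of these 6 are plasma proteases, so the tally does not describe the members' own targets. The risen genes all encode plasma zymogens made by hepatocytes, namely Klkb1, plasma kallikrein (0.82, 0.00161), F2, prothrombin (0.34, 0.0223) and F11 (0.36, 0.0316). Plau fell (-1.06, 0.00871).

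Serpina3 genes of the acute phase are known to respond to interleukin-6 type cytokines through STAT3, with C/EBP factors, and to interleukin-1, whereas Serpina1 depends on hepatocyte factors such as HNF4. Of 22 such regulators tested, 10 fell, 3 rose and 9 did not pass (median -0.408). Il6 went from 4.61 ± 1.32 to 1.17 ± 0.425 CPM (-1.95 on the log2 scale, adjusted p of 0.00421 from edgeR), Il1b from 99.9 ± 2.91 to 11.4 ± 5.16 CPM (-3.13, 0.000568), the receptors Osmr (-1.95, 0.000458) and Il1r1 (-2.37, 0.00112) fell, and Il6ra (-0.38, 0.108) and Il6st (-0.03, 0.91) did not pass. Stat3 (-0.76, 0.00123), its target Socs3 (-0.49, 0.00931) and Cebpb (-0.50, 0.0129) fell, Cebpd did not pass (-0.61, 0.388), and Cebpa rose (0.66, 0.00231). Hnf4a fell (-0.52, 0.00583). These are mRNA levels, and whether they set the level of any serpin was not tested.

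Promoters from RefSeq (GRCm38.p6) were found for 7 of the 10 members, the 5 Serpina1 copies, Serpina3c and Serpina3n, and the 250 bases before each start were searched on both strands. The letters GTTAAT, known from promoters of liver genes, occurred in all 5 Serpina1 promoters and in Serpina3c, against 6.43% of all 32851 promoters. The Serpina1 promoters are close copies of each other, so their matches are not 5 separate observations. TTGCNNAA, read by C/EBP factors, occurred in Serpina1b, Serpina1d and Serpina1e (9.56% of all promoters). TTCNNNGAA, the STAT form, occurred in none of these windows (7.02%). Serpina3n held no match to any of the 3, and no matches overlapped. A match in a window of this length is a description of the letters and not of binding. The 100 bases before the start of Serpina1a (chr12:103863620-103863719), Serpina1c (chr12:103904951-103905050) and Serpina1e (chr12:103956898-103956997), all on the minus strand, show how alike the copies are, with the match in capitals.
Serpina1a: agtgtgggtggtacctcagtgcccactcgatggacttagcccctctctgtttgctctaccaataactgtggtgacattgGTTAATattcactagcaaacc
Serpina1c: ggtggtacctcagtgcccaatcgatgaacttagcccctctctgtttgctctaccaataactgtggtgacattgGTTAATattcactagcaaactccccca
Serpina1e: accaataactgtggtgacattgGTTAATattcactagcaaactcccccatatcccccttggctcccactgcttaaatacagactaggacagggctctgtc

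The Serpina1 promoters were 92.0% to 98.0% identical over the 188 to 248 bases that aligned in each pair. Those of Serpina3n (chr12:104406458-104406707, plus strand) and Serpina3c (chr12:104153873-104154122, minus strand) were 92.7% identical to each other over 247 aligned bases, although the genes differed widely in level and in fold change. Both are shown whole, with the only match to the 3 motifs, in Serpina3c, in capitals.
Serpina3n: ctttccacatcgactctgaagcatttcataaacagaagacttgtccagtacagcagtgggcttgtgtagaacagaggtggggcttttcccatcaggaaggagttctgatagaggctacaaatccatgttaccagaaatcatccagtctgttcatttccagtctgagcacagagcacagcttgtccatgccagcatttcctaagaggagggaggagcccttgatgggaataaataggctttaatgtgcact
Serpina3c: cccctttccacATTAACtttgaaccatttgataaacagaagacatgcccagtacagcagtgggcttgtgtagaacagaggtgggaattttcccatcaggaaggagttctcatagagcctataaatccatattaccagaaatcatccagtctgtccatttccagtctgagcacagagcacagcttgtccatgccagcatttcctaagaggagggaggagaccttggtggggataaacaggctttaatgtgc

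Secreted serpins are folded in the endoplasmic reticulum and leave it with the cargo receptor Lman1 and its partner Mcfd2, and misfolded alpha-1 antitrypsin is cleared from there. Of 14 genes of folding, export and clearance, 13 did not pass and Lman1 rose (log2 fold change 0.39, edgeR adjusted p = 0.025), with a median of 0.0513. Mcfd2 (0.21, 0.0987), Syvn1 (-0.49, 0.132) and Man1b1 (0.17, 0.145) did not pass.

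Markers of cell types moved alongside the members. Of 9 hepatocyte markers, 6 rose, none fell and 3 did not pass (median 0.539). Ttr (1.06), Alb (0.70), Apoc3 (0.66), Apoa2 (0.56) and Rbp4 (0.43) were among those that rose. Apoa1 (0.34), Hpx (-0.34) and Tat (-0.23) did not pass. The summed level of the 9 was 69000 to 78910 CPM in vehicle livers and 102100 to 122700 CPM in Rk2 livers. Most of it was Alb, with means of 49230 and 80120 CPM. This sum moved in the direction of Serpina6 and against that of Serpina3n, Serpina3m and Serpina3c. Of 10 neutrophil markers, 8 fell, none rose and 2 did not pass (Trem1 -2.79, Mmp8 -2.22, Csf3r -2.19 and S100a9 -2.04), and their sum was 505 to 625 CPM with vehicle and 94.7 to 225 CPM with Rk2. All 10 monocyte markers fell (Ccr2 -4.41, Vcan -5.61, Ms4a6c -4.33 and F13a1 -5.15), and 9 of them fell more than 2-fold. Their sum was 1641 to 1962 CPM with vehicle and 1130 to 1187 CPM with Rk2. Most of it was Fn1, which fell least (log2 fold change -0.49, from 1609 ± 178 to 1150 ± 30.5 CPM). The sum thus says little of the other markers. Every tested marker of these 3 lists had counts in all 6 libraries. Their part in the members' values was not tested, and in bulk tissue fewer cells of a type and less RNA per cell cannot be told apart.

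The genes most like the members in pattern were taken by Pearson's r of log2(CPM + 1) over the 6 libraries, among 6962 genes with a mean of at least 10 CPM (6958 for the sum). For Serpina3n they were Nsmaf (r = 0.9989), Epb41 (0.9984) and Osm (0.9972), the gene of oncostatin M, which went from 19.4 to 1.62 CPM on average. For Serpina6 they included Rgs16 (0.9959) and Chchd1 (0.9953), and for the Serpina1 sum Zmat2 (0.9969) and Nucb1 (0.9964). The points are 6 libraries in the groups compared, so these values are a description.

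**Figure D5:**
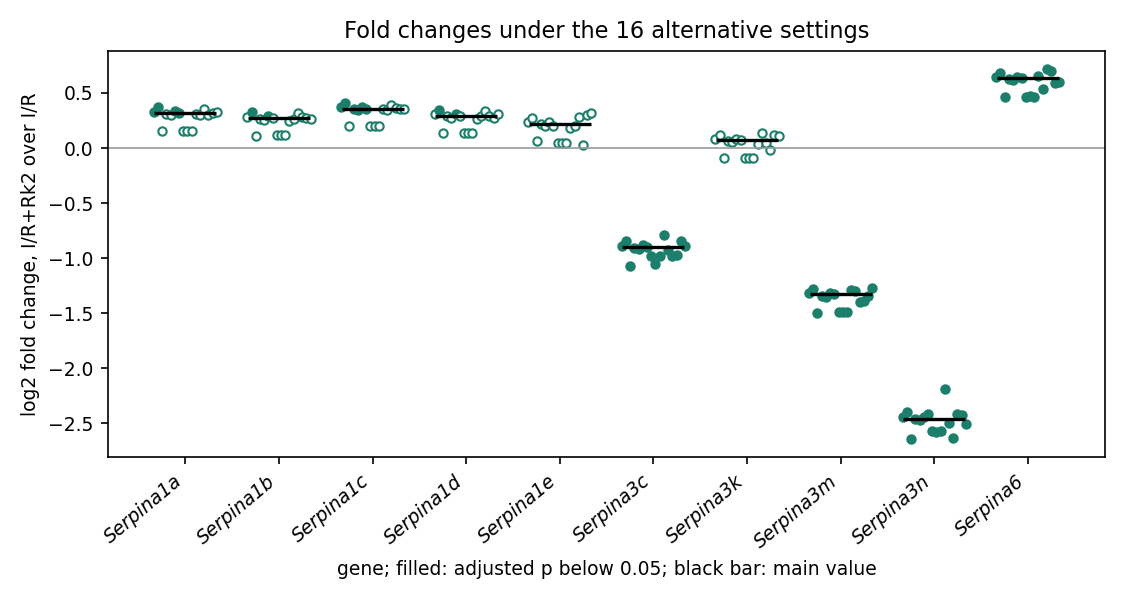
Log2 fold change, I/R+Rk2 over I/R, of each member under the 16 alternative settings (points, filled where the adjusted p was below 0.05), with the main value as a black bar. Serpina3c, Serpina3m, Serpina3n and Serpina6 are filled in all 16, while Serpina1a and Serpina1c are filled in 4 and 6 and Serpina3k crosses 0.

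Serpina3n, Serpina3m, Serpina3c and Serpina6 kept their direction and passed under all 16 alternatives, shown in the plot of the alternative settings. Their log2 fold changes ranged from -2.64 to -2.19, -1.50 to -1.27, -1.07 to -0.787 and 0.466 to 0.716, and the highest adjusted p among them was 0.0351, for Serpina6 with limma on log2(FPKM + 1) without a filter.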

How the data were processed

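The authors aligned reads with HISAT2 2.2.1 and quantified them with StringTie 1.3.3 on mm10, with FastQC 0.11.5, per the labels and the submitters' processing notes. They deposited whole-number counts per gene and FPKM. The annotation, read length, strand setting, the step that made whole-number counts and the handling of multiply aligned reads are not given in the sources used here. Livers of a group differed by a chi-square per degree of freedom of 31.4 to 74.8, so each was 1 replicate. Depth limits cover counting error only, and the 95% intervals of fold changes come from the edgeR fit and include the spread between livers.

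Counts went into edgeR 4.0.16 under R 4.3.3 (filterByExpr, TMM, quasi-likelihood F test, no covariates, all 6 libraries), adjusted over 12411 genes. Cluster sums replaced their members in a second table. DESeq2 1.42.0, and limma 3.58.1 on log2(FPKM + 1) or log2(FPKM + 0.1), were alternatives, with other scalings and filters, a replicate block and leaving out each library. The edgeR step was tested on simulated data in which few genes changed, evenly in both directions. That run does not test the scaling for data with as many changed genes as these. The members, lists and tests were chosen with earlier results of these data known. Named are the members, every other clade A serpin with a row, the 4 tested genes with the smallest p of each other list, 14 further regulators and proteases, and the 3 most alike genes of Serpina3n, Serpina6 and the Serpina1 sum. Some genes that this rule selects are left out of the text but were kept in all counts. Tsc22d3, Alb, Fn1, Apoa1, Hpx, Tat, Gzmb and Klk1 were added after their values were seen. Windows, identities and motifs were computed with Python 3.11.15 and Biopython 1.88 (match 1, mismatch -1, gap opening -3, extension -0.5), taking the principal transcript with the longest coding sequence. Of the count rows, 21 carry a date for a name and are named nowhere.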

Additional observations from a re-analysis of the deposited data

How the results depend on the processing

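The count of members that fell (3) was the same under all 16 alternatives. The count past the study's limits (2) was 3 with library size alone and with limma on log2(FPKM + 0.1), where Serpina3c reached -1.07 and -1.05, and 2 under the other 14. The count that rose, 3 in the main test, was 5 with upper-quartile scaling and with DESeq2, 2 with no filter and with at least 10 counts in every library (Serpina1a at adjusted p = 0.0522 and 0.0595), and 1 (Serpina6) with library size alone, with the 3 fits on FPKM and with each library left out (lowest 1, highest 1), where fewer samples or the scaling enter; the cause was not tested. The Serpina1 sum passed in DESeq2 alone (log2 fold change 0.30, adjusted p = 0.0117) and ranged from 0.123 to 0.338. Serpina3k turned negative with library size alone (-0.0867), in limma on log2(FPKM + 1) with and without a filter (-0.0908 in both) and on log2(FPKM + 0.1) (-0.0909), and ranged from -0.0198, without I/R+Rk2 replicate 1, to 0.136 with 1 library left out. Library size alone moved the median of all genes by -0.162 and the FPKM fits with a filter by -0.114 and -0.138; relative to the median, Serpina1a, Serpina1c and Serpina6 stayed above it and Serpina3c, Serpina3m and Serpina3n below. The difference in the share of Serpina1b ranged from -0.571 to 0.651 points (without I/R+Rk2 replicates 3 and 1), and that of Serpina1d from -0.243 to 0.623 points (without replicates 2 and 1, and -0.0238 without replicate 3). That of Serpina1e, -1.47 points, lay at -3.99 when I/R+Rk2 replicate 1 was left out and at -0.0948 when replicate 3 was. Same-numbered livers did not deviate together (correlations -0.0615, -0.00212 and -0.0649). With 3 livers per group such values cannot show whether same-numbered livers were handled together. With a replicate block no call of a member changed (Serpina3n -2.42, adjusted p = 0.00399; Serpina1a 0.318, adjusted p = 0.0476), while the count of all genes called went from 5454 to 4713.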

Other observations

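Other cell types of the liver were read through lists of their markers. Of 10 Kupffer cell markers, 2 fell (Cd163, log2 fold change -1.38, edgeR adjusted p = 0.00357, and Cd5l, -0.97, 0.0114), and 8 did not pass, C1qa (-0.43) and Timd4 (-0.67) among them. Of 8 endothelial markers, 3 fell and 3 rose, with Lyve1 (-0.84) and Cdh5 (-1.17) lower and Clec4g (0.97) and Oit3 (0.80) higher. Of 8 stellate cell markers, 2 fell (Pdgfrb, -1.39, and Dcn, -0.61) and 6 did not pass, Reln (-0.24) and Col3a1 (0.67) among them. Of 8 cholangiocyte markers, 3 fell (Spp1 -1.20, Epcam -0.93 and Cftr -2.27), 1 rose and 4 did not pass. Summed levels of the Kupffer list were 93.3 to 145 CPM in I/R and 75.1 to 91.6 CPM in I/R+Rk2, and those of the stellate list overlapped between the groups, at 168 to 205 and 133 to 185 CPM.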
